A study of Monodelphis domestica and Mus musculus with 2 samples.

Results

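IT_A is one of the intratelencephalic (IT) subclasses of glutamatergic neurons of the opossum visual cortex, and most of its cells lie above IT_B, a subclass of the middle of the cortex. A minority of cells with the same label lie below IT_B, among the deeper neurons. Here the IT_A cells below IT_B were set against those above it, gene by gene. The cells were those of the 3 primary visual cortex (V1) regions of the opossum section that passed the authors' filter, carried the class label glutamatergic and carried the subclass label IT_A, which gave 1594 cells of 4806 in these regions, of 80369 segmented in the section and of 200608 in both sections. The depth of a cell was measured along the side of the smallest rectangle around its region that ran from the mean IT_A to the mean L6CT position, and was divided by the height of the region, so that 0 is the top and 1 the bottom. The cut was the median relative depth of the 126 IT_B cells, pooled over regions, at 0.485. It left 1237 IT_A cells above and 357 below. Only positions placed a cell on a side, so the genes compared did not enter the cut, although they did enter the subclass label.

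The data are Stereo-seq counts, in which polyadenylated RNA of a tissue section is captured on a chip of barcoded spots and unique molecular identifiers (UMIs) are summed over cells segmented on an image. They come from the cortex of 1 adult, untreated male Monodelphis domestica of about 6 months, a section of 10 µm, and a block with an RNA integrity number of 7.1 that held several coronal slices. A mouse section, from 1 wild-type male C57BL/6J animal of about postnatal day 40, is given side by side at the end. Each species is 1 animal, the regions of a section are not biological replicates, and no test was run. The paper counts its 3 opossum regions as coming from 2 sections. Regions 1 and 2 lay nearer to each other than to region 3, so the 3 are not equally separate places. Their centres were at 6368 and 4818 µm, 6508 and 3804 µm, and 2619 and 1756 µm along the 2 axes of the chip. Ratios are of UMIs per 10000 UMIs summed over cells, below over above, with exact 95% intervals that cover counting error only, and each region is shown singly.

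IT neurons send their axons to other cortical areas, to the opposite hemisphere and to the striatum, and are found in all cellular layers of the cortex. In the rodent cortex, those of layers 2/3, 4, 5 and 6 differ in the genes they transcribe. Upper IT neurons transcribe Cux2, layer 4 neurons the orphan receptor gene Rorb, and many layer 5 neurons the transcription factor gene Etv1. The pyramidal tract (L5PT) and corticothalamic (L6CT) neurons of the deep layers project out of the cortex.

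The share of IT_A cells below the cut ran from 21.1% in region 1 to 23.4% in region 2. It was 22.4% of all IT_A cells (95% Clopper-Pearson interval 20.4 to 24.5), with 142 of 672 cells in region 1, 127 of 543 in region 2 and 88 of 379 in region 3. The median IT_A cell above lay at a relative depth of 0.176 and the median cell below at 0.602, or 129 and 449 µm from the top. IT_B itself lay at medians of 0.537, 0.492 and 0.416 in regions 1 to 3, so the pooled cut ran above the IT_B of region 1 and below that of region 3. At the cut itself, the nearest cells lay at 0.484 and 0.485, and 73 cells above and 83 below were within 0.05 of it. Depth of sequencing was close on both sides, with a median of 1361 UMIs and 827 genes per cell above and 1376 UMIs and 845 genes below. Region 3 was shallower, at 966 UMIs above and 1107 below, against 1385 and 1378 in region 1 and 1628.5 and 1537 in region 2.

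**Figure D1:**
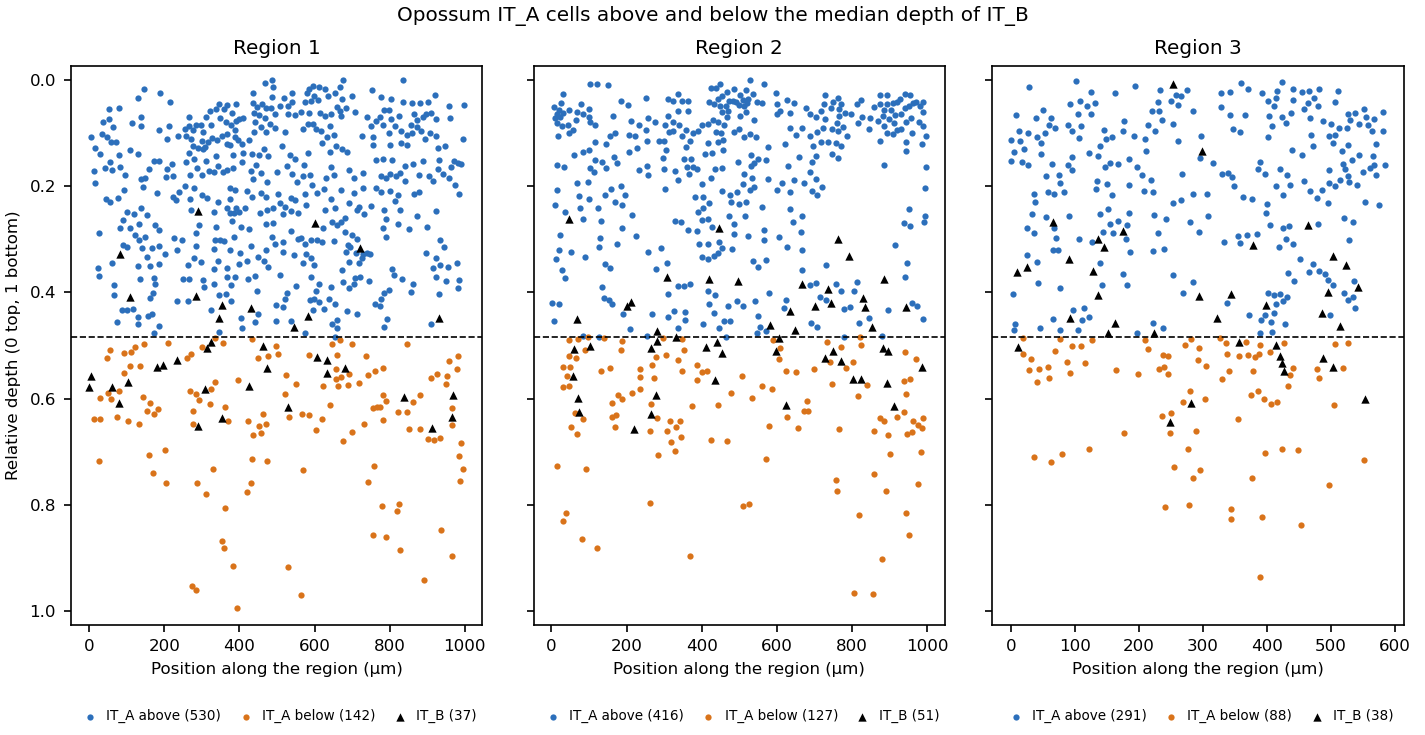
Position along each V1 region in µm (x axis) against relative depth from 0 at the top to 1 at the bottom (y axis) for single cells. Blue points are IT_A cells above the dashed line, the pooled median depth of IT_B, orange points are IT_A cells below it, and black triangles are IT_B cells. The 357 cells below are spread along the whole width of all 3 regions and thin out towards the bottom.

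Marker genes were compared on both sides. Gene counts entered the subclass label, so these levels are no independent check of it. CUX2, which marks upper IT neurons, stood at 3.55 (3.28 to 3.83) UMIs per 10000 in IT_A above and 3.88 (3.36 to 4.45) below. This is more than in IT_C, the deeper IT subclass, at 1.12 (0.819 to 1.49), in L6CT at 0.804 (0.637 to 1.00) or in astrocytes at 1.94 (1.55 to 2.39). RORB was low on both sides, at 0.422 (0.332 to 0.528) and 0.687 (0.481 to 0.952), whereas it stood at 7.50 (6.38 to 8.76) in IT_B. CUX2 below was thus near its level above, and RORB was under its level in IT_B. The 19 upper-layer IT genes with a feature, CUX2 among them, summed to 40.7 above and 29.0 below. Their sum was 39.9 in IT_B and 21.7 in astrocytes. TLE4, a marker of L6CT, was at 1.18 below and 2.82 in L6CT. Its ratio below over above was 1.48 (1.08 to 2.01), without 1 direction in all regions. The summed level of the 7 glutamatergic marker genes that have a feature gave less separation. It was 75.3 above and 55.5 below, and astrocytes and oligodendrocytes of this section stood at 54.3 and 54.8, so that the cells below were close to glia on this sum, most of which is NRGN.

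Fewer labels below than above came from the strictest round of labelling. The authors labelled cells in 3 rounds of nearest-neighbor classification, with the strictest agreement among neighbors in round 1. Of the cells above, 36.5% (33.8 to 39.2) were labelled in round 1, and of those below 11.5% (8.37 to 15.3), or 41 cells. Round 3 gave 119 of 1237 labels above and 87 of 357 below. The deposited cluster labels, also transferred from the snRNA-seq atlas, placed 1019 cells above and 193 below in clusters 1 and 3, which hold most IT_A cells. Another 36 cells below were in cluster 4, which holds most IT_C cells, 30 were in cluster 5, which holds most IT_B cells, and 29 in cluster 6, which holds only IT_A cells among the IT_A, IT_B and IT_C cells. Above the cut these were 32, 34 and 32 cells. How these numbers match the cluster names used by the study was not settled here.

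The cells around IT_A differed between the sides. Among the 10 nearest cells of an IT_A cell, 62.3% were IT_A above and 24.7% below. Oligodendrocytes made up 4.29% above and 11.8% below, and the median distance to the nearest one was 51.7 and 28.3 µm. Summed marker genes of oligodendrocytes, astrocytes and interneurons were also higher below. The small sums of oligodendrocyte precursor (OPC) and microglial genes were lower, at 0.672 and 0.616 above and 0.344 and 0.401 below. The 11 oligodendrocyte genes with a feature summed to 24.4, 22.2 and 19.1 UMIs per 10000 above in regions 1 to 3 and to 39.8, 40.8 and 32.7 below, with none of them at 0. The 12 astrocyte genes summed to 34.5, 37.0 and 45.1 above and 47.9, 42.7 and 48.6 below, and the 13 GABAergic genes to 10.7, 12.7 and 11.9 above and 17.5, 16.9 and 13.2 below, again with no gene at 0 on either side. In the cell types these lists mark, the sums were 149.8 in oligodendrocytes, 133 in astrocytes and 76.6 in Pvalb cells. These sums stand beside every gene difference given here. Their part in those differences was not tested, and the values that bear on it, the same cut in other cells and the distance from oligodendrocytes, are given after the genes.

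Of 5040 genes with at least 100 UMIs over all IT_A cells, 214 (4.25%) were at least 1.5-fold higher below with the same direction in all 3 regions, and 342 (6.79%) were at least 1.5-fold lower. Without the fold, 789 genes (15.7%) were higher below in every region and 875 (17.4%) lower. The median gene had a log2 ratio of 0.01. The interval left out a ratio of 1 for 208 of the 214 and 314 of the 342. The fold and the 100 UMIs by which these genes were chosen largely bring this about, so it is no further check. For most of these genes the fold was modest, with a median of 1.67 for those higher below and 1.78 for those lower. The genes described next are, in each direction, the 15 with a symbol whose interval lay farthest from 1 among those with 1 direction in all regions.

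ETV1, a transcription factor of the ETS family that marks layer 5 neurons in rodents, had the largest difference among the genes higher below. It stood at 0.309, 0.181 and 0.196 UMIs per 10000 above in regions 1 to 3 and at 1.38, 1.60 and 1.31 below. Every region below lay over every region above, and the ratio was 6.08 (95% interval 4.13 to 9.06). These values rest on 43 UMIs in 36 cells above and 76 UMIs in 53 cells below, with at most 4 in 1 cell.

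Among the other genes higher below, GRM4, a metabotropic glutamate receptor, stood at 0.373, 0.738 and 0.359 above and 1.99, 2.08 and 0.748 below, a ratio of 3.44 (2.55 to 4.64). Its region ratios spread from 2.09 in region 3 to 5.34 in region 1. Its UMIs were concentrated, with 93 of them in 26 cells below and 12 in 1 cell, without which the ratio was 3.01. RXFP1, the relaxin receptor, had a ratio of 3.10 (2.23 to 4.31), and region 3 stood lowest at 1.72. CNTN5, a contactin that anchors cell contacts, stood at 0.669, 0.752 and 0.587 above and 1.85, 2.62 and 1.96 below, with no overlap between sides and a ratio of 3.16 (2.43 to 4.11). PAMR1, a secreted protein with a peptidase-like domain, was even across regions, with ratios of 2.72, 2.57 and 2.68. CHST2, a sulfotransferase that modifies glycans, had 1.96 above and 4.85 below, a ratio of 2.48 (2.10 to 2.92).

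CPLX1, whose product complexin binds the assembled SNARE complex at synapses, had more UMIs than any of the genes higher below just named. Its level was 7.62, 6.86 and 8.12 UMIs per 10000 above and 13.3, 18.4 and 18.0 below, and its ratio of 2.19 (2.01 to 2.39) rests on 1334 and 850 UMIs. All regions below lay over all regions above. CPLX2, a second complexin, stood at 5.48 above and 5.35 below, a ratio of 0.976 (0.852 to 1.12). PCP4L1, a small relative of the calmodulin-binding protein PCP4, was at 2.29, 2.00 and 2.67 above and 5.94, 5.19 and 7.39 below, with region ratios of 2.59, 2.59 and 2.76. Among genes of ion transport, FXYD6, a regulator of the sodium-potassium pump, had a ratio of 2.87 (2.18 to 3.77) and SLC24A3, a sodium, potassium and calcium exchanger, one of 2.88 (1.94 to 4.24). Further genes higher below were ARAP2, a GTPase-activating protein, at 2.50 (1.79 to 3.46), CDK5RAP2, a centrosomal protein, at 2.36 (1.78 to 3.11), and DIPK1B at 2.25 (1.72 to 2.95).

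Another 2 genes higher below are markers of other cells. MBP, the myelin basic protein of oligodendrocytes, stood at 17.3, 15.6 and 13.5 above and 29.3, 31.8 and 25.0 below, a ratio of 1.84 (1.72 to 1.95). GAD1, the GABA-synthesizing enzyme of interneurons, was at 1.39 above and 3.00 below, a ratio of 2.15 (1.75 to 2.64). Oligodendrocytes held 83.5 UMIs of MBP per 10000 and Pvalb cells 14.1 of GAD1, well over both sides of IT_A.

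**Figure D2:**
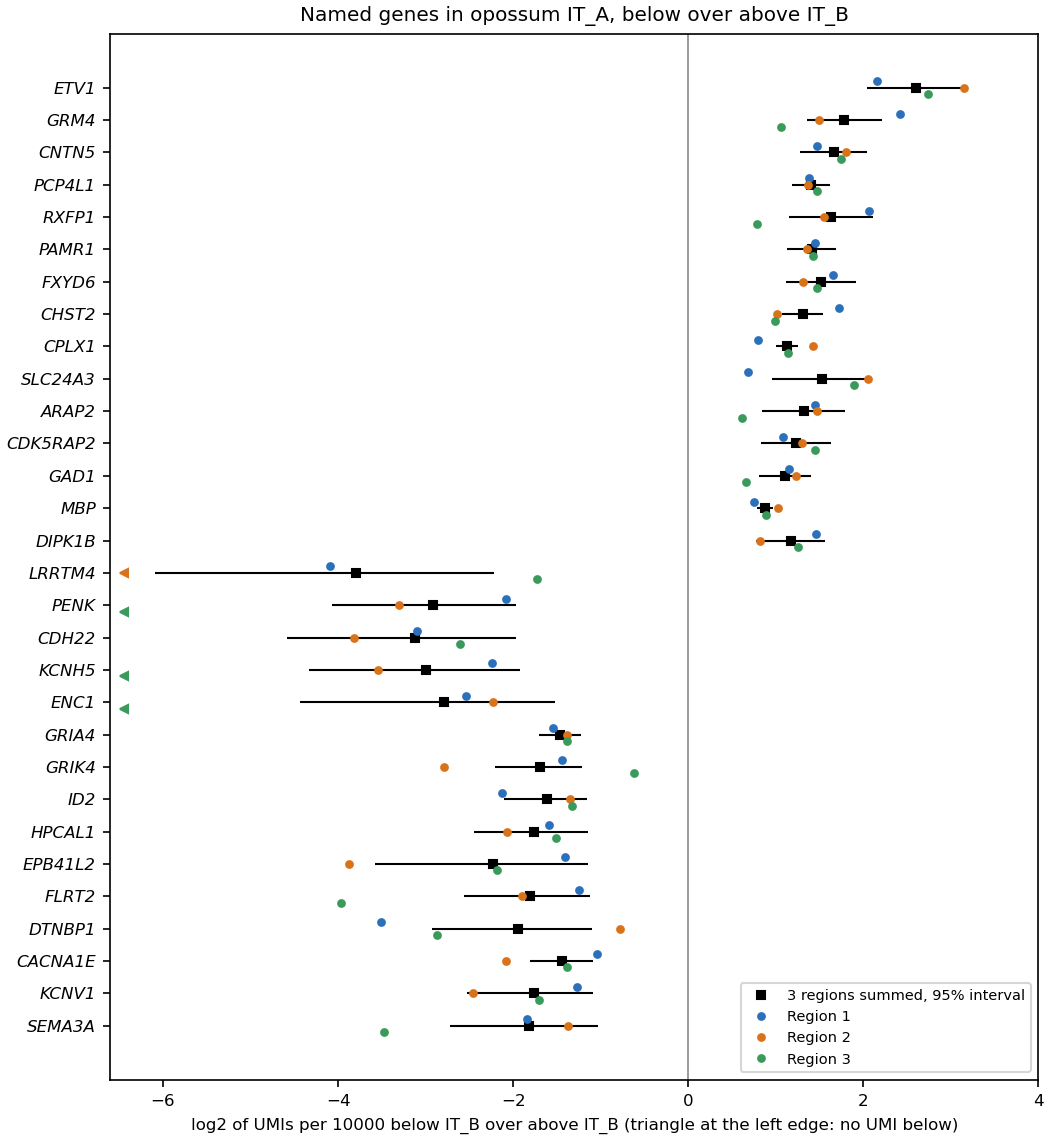
Log2 of the level below over above IT_B (x axis) for the 15 genes farthest to each side (y axis). Black squares with bars are the 3 regions summed with the exact 95% interval of counting error, coloured points are single regions, and triangles at the left edge mark regions with no UMI below. All points of the upper 15 genes lie right of 0 and all of the lower 15 left of it, as the rule of choice requires, and the points of PCP4L1, PAMR1 and GRIA4 lie closest together.

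Among the 15 genes lower below, LRRTM4 and CDH22 had the largest folds. LRRTM4, a leucine-rich repeat protein of excitatory synapses that binds neurexins and heparan sulfates, had 63, 61 and 19 UMIs above in regions 1 to 3 and 1, 0 and 2 below. Its level was 0.794 per 10000 above and 0.0573 below, 13.9-fold (4.65 to 68.0) higher above on 3 UMIs. Against a floor of 3 UMIs in region 2, the level above was at least 5.84-fold higher there. CDH22, a cadherin, had 95, 49 and 35 UMIs above and 3, 1 and 2 below, 8.67-fold (3.91 to 23.9) higher above. FLRT2, which binds latrophilins and UNC5 receptors, was 3.49-fold (2.18 to 5.90) higher above, and the guidance cue SEMA3A 3.53-fold (2.05 to 6.59).

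GRIA4, an AMPA receptor subunit, had the most UMIs of these 15 genes lower below. It stood at 8.75, 9.13 and 7.11 UMIs per 10000 above in the 3 regions and at 2.99, 3.49 and 2.71 below, so the sides did not overlap. The level was 2.75-fold (2.34 to 3.25) higher above, and the region folds were 2.92, 2.62 and 2.62. GRIK4, a kainate receptor subunit, was 3.23-fold (2.33 to 4.61) higher above, with uneven regions at 2.72, 6.93 and 1.53-fold and up to 27 of its 434 UMIs in 1 cell. Of channels, CACNA1E, the pore subunit of R-type calcium channels, stood at 3.90, 3.69 and 3.43 above and 1.90, 0.873 and 1.31 below, 2.72-fold (2.13 to 3.51) higher above. KCNH5, a potassium channel of the ether-à-go-go family, had 192 UMIs above and 7 below, with none below in region 3, where the level above was at least 2.79-fold higher. KCNV1, a silent subunit of potassium channels, was 3.40-fold (2.12 to 5.75) higher above.

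PENK, the precursor of the enkephalin peptides, had 94, 103 and 37 UMIs above and 6, 3 and 0 below, 7.56-fold (3.91 to 16.7) higher above. CRH, corticotropin-releasing hormone, was less uneven between sides, at 3.53, 3.29 and 3.56 above and 1.47, 1.21 and 2.90 below, a ratio of 0.484 (0.382 to 0.606). CRH was lower below by more in astrocytes, at 0.247 (0.132 to 0.438), and in all cells other than IT_A, at 0.198 (0.167 to 0.236). The other genes lower below included ID2, an inhibitor of basic helix-loop-helix factors, at 3.07-fold (2.23 to 4.31) higher above, and HPCAL1, a neuronal calcium sensor, at 3.40-fold (2.22 to 5.46). DTNBP1, a subunit of the BLOC-1 complex, was 3.85-fold (2.14 to 7.61) higher above, EPB41L2, a membrane skeleton protein, 4.69-fold (2.20 to 11.9), and ENC1, an actin-binding protein, 6.92-fold (2.88 to 21.7). For ENC1 no UMI lay below in region 3, where the level above was at least 3.14-fold higher.

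The genes did not all change at the cut. With 3 bins of equal height above it and 3 below, GRIA4 in IT_A stood at 11.3, 7.48, 3.81, 3.19, 3.06 and 2.82 UMIs per 10000 from top to bottom, so most of the difference lay within the cells above. CACNA1E went in smaller steps, at 4.45, 3.52, 2.33, 1.70, 0.716 and 1.06. CPLX1 stood at 5.49, 8.23, 10.8, 15.1, 18.8 and 15.5, with its highest level in the fifth bin. PCP4L1 stood at 1.69, 2.33, 3.46, 3.69, 9.38 and 14.5, highest in the last bin of 24 cells. GRM4, in contrast, was highest in the fourth bin, the upper one of those below the cut, at 0.255, 0.520, 1.16, 2.40, 0.716 and 0, and CNTN5 followed with 0.592, 0.637, 1.02, 2.78, 0.977 and 1.41. LRRTM4 was at 1.07, 0.453, 0.698, 0.0585, 0.0651 and 0, with a fall from the third bin to the fourth. Within 0.05 of the cut, where 73 cells above and 83 below were compared, CPLX1 was at 12.2 just above and 15.8 just below, GRIA4 at 3.06 and 2.31, and PCP4L1 at 4.01 and 3.41. LRRTM4 had 2 UMIs just above and 0 just below, too few to place its fall at the cut. In this narrow band GRM4 went the other way than over all cells, at 1.69 just above on 16 UMIs and 0.502 just below on 5, and PAMR1 did so too, at 5.17 and 3.11.

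**Figure D3:**
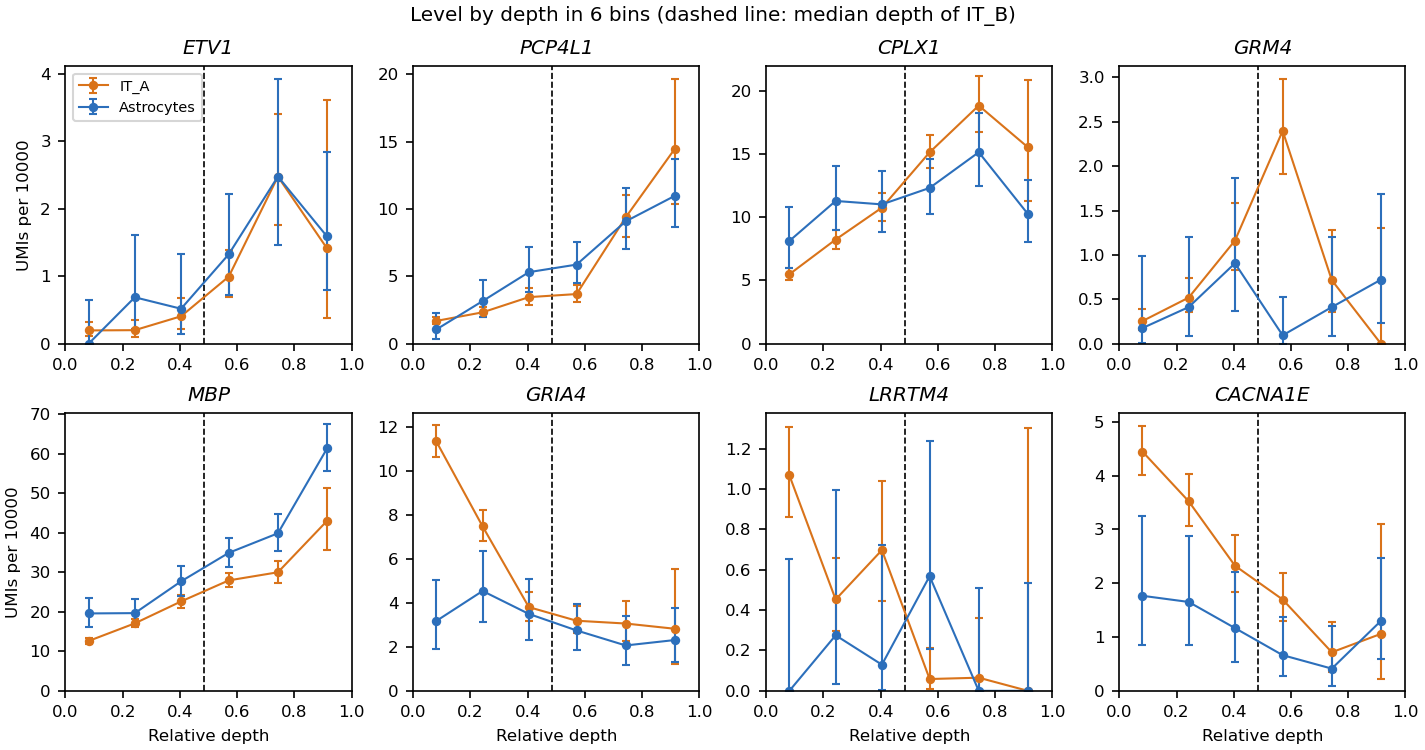
UMIs per 10000 (y axis) against relative depth (x axis) in 6 bins for 8 genes in IT_A cells (orange) and astrocytes (blue), with exact Poisson 95% intervals of counting error. The dashed line is the median depth of IT_B. GRIA4 in IT_A is near the level of astrocytes from the third bin on, GRM4 in IT_A is highest in the fourth bin, and ETV1, PCP4L1 and MBP are higher in the 3 lower bins than in the 3 upper ones in both cell types.

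For values in cells that are not neurons, the same cut was applied to the 359 astrocytes of non-neuronal class, 181 above and 178 below. Of the 15 genes higher below in IT_A, 13 were also higher below in astrocytes, and for 7 of these the astrocyte interval left out 1. ETV1 was among them, with an astrocyte ratio of 3.99 (1.92 to 9.30), as were PCP4L1 at 2.43 (1.84 to 3.24), RXFP1 at 4.80 (1.64 to 19.1), PAMR1 at 2.61 (1.61 to 4.38), FXYD6 at 2.67 (1.47 to 5.13) and MBP at 1.93 (1.73 to 2.16). In these 6 genes the astrocyte interval overlapped that of IT_A. For 4 genes it lay wholly under the interval of IT_A. They were GRM4, with 0.683 (0.250 to 1.81) in astrocytes, CHST2 with 0.937 (0.675 to 1.30), CPLX1 with 1.22 (1.02 to 1.46) and GAD1 with 1.07 (0.715 to 1.61). CNTN5 was at 1.08 (0.439 to 2.76) in astrocytes on few UMIs.

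Of the 15 genes lower below in IT_A, 12 were lower below in astrocytes too, with an interval that left out 1 for GRIA4 at 0.642 (0.450 to 0.910), DTNBP1 at 0.371 (0.139 to 0.896), CACNA1E at 0.511 (0.273 to 0.934) and SEMA3A at 0.196 (0.0480 to 0.602). The IT_A difference exceeded that of astrocytes with intervals apart for GRIA4, for GRIK4 at 0.865 (0.586 to 1.28) and for LRRTM4 at 1.67 (0.356 to 10.3), the last on 3 and 6 astrocyte UMIs. Over the 3212 cells other than IT_A, which differ in type between depths, the ratios were 1.55 (1.15 to 2.11) for GRM4, 1.15 (1.08 to 1.21) for CPLX1, 1.02 (0.910 to 1.14) for CHST2, 0.715 (0.634 to 0.807) for GRIA4 and 2.00 (1.31 to 3.17) for LRRTM4. For ETV1 and MBP, with 3.95 (2.94 to 5.43) and 1.72 (1.65 to 1.79) in these cells, the intervals overlapped those of IT_A. The 30 genes were chosen for an IT_A interval far from 1, which favours a larger ratio in IT_A than in cells that did not enter the choice.

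**Figure D4:**
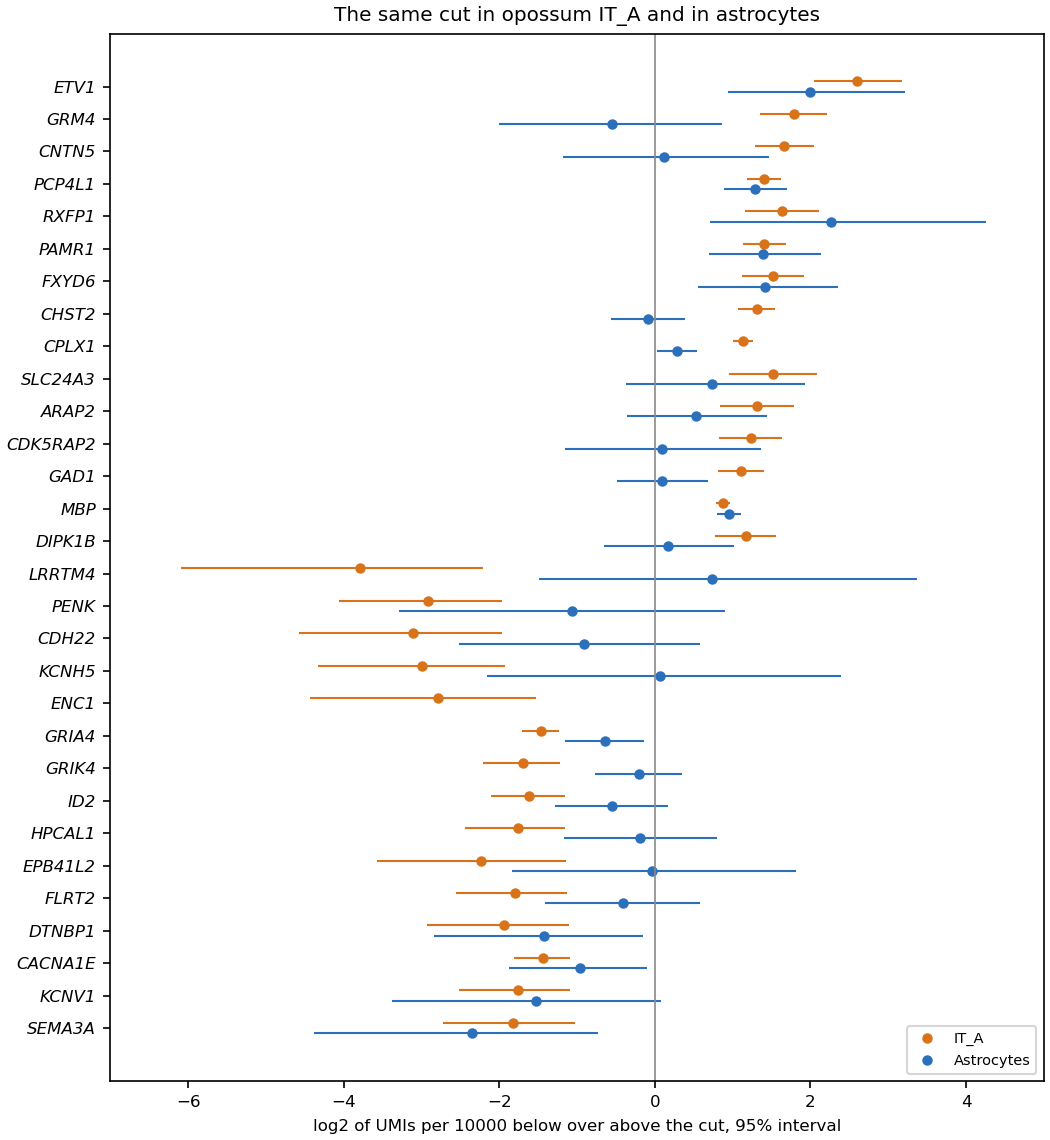
Log2 of the level below over above the cut (x axis) for the same 30 genes (y axis) in IT_A cells (orange) and astrocytes (blue), with exact 95% intervals of counting error. ENC1 has no astrocyte point because no astrocyte above the cut held a UMI of it. The points of PCP4L1, PAMR1, FXYD6 and MBP coincide, and those of GRM4, CHST2, CPLX1, GRIK4 and LRRTM4 stand apart.

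Shares of cells with at least 1 UMI were read against astrocytes as well, whose median depth was 1180 UMIs per cell. CPLX1 was found in 52.3% of IT_A cells above and 78.4% below, and in 59.3% of astrocytes. After thinning of IT_A cells to 300 UMIs, which left out 52 shallower cells, the shares were 19.1% and 37.2%. GRIA4 was found in 44.4% above, but in 25.2% below, near the 23.7% of astrocytes of both sides. Whether the UMIs below were transcribed by the IT_A cells themselves was not tested. ETV1 was found in 2.91% above and 14.8% below, with 9.47% of astrocytes, and GRM4 in 4.28%, 7.28% and 3.62%. PENK was found in 13.1% above, over the 2.51% of astrocytes, and in 1.96% below, under it.

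Side by side with the other glutamatergic subclasses, the IT_A cells below stood near IT_B in some genes and near deeper subclasses in others. RXFP1 was at 1.39 (1.09 to 1.75) in IT_A below and 1.46 (0.993 to 2.08) in IT_B, and CHST2 at 4.85 (4.27 to 5.48) and 4.39 (3.54 to 5.37). GRM4 was higher in IT_B, at 2.64 (1.99 to 3.43), with 1.78 (1.43 to 2.18) in IT_A below and 0.973 (0.695 to 1.33) in IT_C. ETV1 and PCP4L1 were low in IT_B, at 0.141 (0.0292 to 0.413) and 1.89 (1.35 to 2.57), and IT_A below stood at 1.45 (1.14 to 1.82) and 5.94 (5.30 to 6.64), close to IT_C at 2.04 (1.63 to 2.53) and 6.18 (5.44 to 6.99). Glia were no lower than IT_A below in PCP4L1, at 6.04 in astrocytes and 10.2 in oligodendrocytes, and close to it in ETV1, at 1.15 and 1.09. CHST2 was at 3.41 in astrocytes and 3.72 in oligodendrocytes, between the levels of IT_A above and below. CPLX1 stood at 16.2 (15.2 to 17.4) in IT_A below and at 16.2 in IT_C, over the 11.5 of astrocytes. LRRTM4 was lower in IT_A below, at 0.0573 (0.0118 to 0.167), than in IT_B at 0.472 (0.226 to 0.867), IT_C at 0.535 (0.335 to 0.810) and L6CT at 0.502 (0.373 to 0.662), with intervals apart. KCNH5 was also lower in IT_A below than in IT_B, at 0.134 (0.0537 to 0.275) against 1.70 (1.19 to 2.35).

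Upper-layer IT genes were past the fold lower below more often than higher, and layer 5 IT and L6CT genes higher more often than lower. These counts are to be read against the 4.25% of all genes that were past the fold higher below and the 6.79% lower. The lists were chosen with earlier results of these data known, so the counts are no independent check. PENK, GRIA4, ETV1 and PCP4L1 were also among the genes farthest from 1 described before. Of 14 measured upper-layer IT genes, 0 were past the fold higher below and 6 were lower, with a median log2 ratio of -0.45 against 0.01 for all genes. PENK, CRH, GRIA4, the transcription factor gene CUX1 at 0.642 (0.465 to 0.871), the ephrin receptor gene EPHA3 at 0.364 (0.258 to 0.501) and NPTX2, a secreted pentraxin, at 0.404 (0.250 to 0.623) were those lower, while RASGRF2, at 1.10 (0.926 to 1.31), and CALB1, the calcium buffer calbindin, at 0.818 (0.678 to 0.981), were not. UNC5D, a netrin receptor, differed between regions, with ratios of 1.06, 0.448 and 0.363. Of 5 layer 4 genes, CNTN5 and TOX, a nuclear factor, were higher at 2.41 (1.71 to 3.39) for TOX, KCNH5 and LRRK1, a kinase, were lower at 0.267 (0.112 to 0.547) for LRRK1, and RORB was at 1.63 (1.06 to 2.45) without 1 direction in all regions. Of 6 layer 5 IT genes, ETV1 and SULF2, a sulfatase, were higher at 1.98 (1.29 to 3.00) for SULF2, none was lower, and DEPTOR, an mTOR inhibitor, stood at 0.896 (0.706 to 1.13). Of 7 L6CT genes, PCP4L1 and GRIK3, a kainate receptor subunit, were higher, GRIK3 at 2.15 (1.49 to 3.06), and none was lower. In all cells other than IT_A, CUX1 was at 0.644 (0.515 to 0.809) and GRIK3 at 3.56 (2.93 to 4.36). Of 4 L5PT genes, the neurofilament gene NEFH was higher, at 1.53 (1.05 to 2.20), and CHST8 lower, at 0.589 (0.369 to 0.905). The median of the layer 4, layer 5 IT and L6CT lists was above 0 over all cells, at 0.70, 0.24 and 0.49, and below 0 in region 3, at -0.18, -0.10 and -0.14. The L5NP list had 1 measured gene, which was not past the fold, and no L6b gene reached 100 UMIs.

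Ionotropic glutamate receptor genes were past the fold lower below in 5 of 10 cases and higher in 1, beside 6.79% and 4.25% of all genes. GRIA2, the subunit that sets the calcium permeability of AMPA receptors, stood at 11.6 above and 7.01 below, a ratio of 0.602 (0.538 to 0.673). GRIA1 was at 0.545 (0.415 to 0.707) and the NMDA receptor subunit GRIN2A at 0.631 (0.499 to 0.789), beside GRIA4 and GRIK4. The other NMDA receptor subunits measured were less uneven, at 0.856 (0.732 to 0.998) for GRIN1 and 0.865 (0.760 to 0.982) for GRIN2B, and GRIK3 was higher. The summed level of the 12 genes with a feature was 45.7, 45.2 and 36.5 above in the 3 regions and 27.8, 32.0 and 24.3 below. In astrocytes it was 26.8 and in IT_B 32.1. Of 6 GABA-A receptor genes none was past the fold in either direction, and the sum was 16.4 above and 16.6 below.

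Among 15 sodium and calcium channel genes, 4 were past the fold lower below and 0 higher, beside 6.79% and 4.25% of all genes. They were CACNA1E, the auxiliary subunit CACNA2D1 at 0.507 (0.416 to 0.614), CACNG3, an AMPA receptor auxiliary protein, at 0.393 (0.292 to 0.521), and CACNA1B, of N-type channels, at 0.632 (0.485 to 0.814). In all cells other than IT_A, CACNA1E went the other way, at 1.59 (1.37 to 1.85). CACNA2D1 was at 0.748 (0.655 to 0.857) in these cells, CACNG3 at 0.724 (0.614 to 0.857) and CACNA1B at 0.668 (0.563 to 0.796). CACNG3 was at 0.326 (0.171 to 0.593) in astrocytes. The sodium channel genes SCN1A and SCN2A stood at 0.991 (0.850 to 1.15) and 1.14 (0.985 to 1.31) in IT_A. Of 20 potassium channel genes, KCNH5, KCNQ5 at 0.512 (0.417 to 0.625) and KCND2 at 0.637 (0.566 to 0.714) were lower and KCNMB4, an auxiliary subunit, higher at 1.82 (1.18 to 2.77). KCND2 had 0.643 (0.593 to 0.697) in all cells other than IT_A. In 21 synaptic release genes, CPLX1 was higher and STX1A, a syntaxin, and SV2B, a vesicle protein, were lower, at 0.525 (0.367 to 0.735) and 0.571 (0.454 to 0.713). These counts were near the shares over all genes. Of the most abundant members, SNAP25 stood at 1.09 (1.03 to 1.15) and SYT1 at 1.05 (0.981 to 1.12).

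Adhesion and guidance genes were past the fold lower more often than higher. Over all genes this was so too, at 6.79% lower and 4.25% higher. Of 31 adhesion genes, 7 were lower and CNTN5 alone was higher, with a list median of -0.28. Besides LRRTM4, CDH20 was at 0.506 (0.375 to 0.671), with 0.506, 0.506 and 0.512 in regions 1 to 3, and PCDH8 at 0.499 (0.287 to 0.822). CDH4, CDH10, PCDH7 and CADM1 were between 0.596 and 0.659. Of 22 guidance genes, 7 were lower, SEMA3A and EPHA3 among them, and 1 higher, with a median of -0.35. SLIT2, a ligand of ROBO receptors, was the 1 higher below, at 1.97, 2.38 and 1.89 above and 3.42, 3.64 and 3.09 below, a ratio of 1.62 (1.35 to 1.94), whereas SLIT1 was lower, at 0.589 (0.483 to 0.715). The ephrin EFNA5 and the receptors EPHA7 and UNC5C were lower, at 0.603 (0.466 to 0.770), 0.622 (0.488 to 0.784) and 0.598 (0.417 to 0.840). EFNB2, at 0.647 (0.390 to 1.03), was past the fold with an interval that reached over 1. Some of these genes were also lower below in astrocytes, with CDH20 at 0.527 (0.302 to 0.901), CDH10 at 0.516 (0.337 to 0.782) and EFNA5 at 0.407 (0.230 to 0.702). CADM1 at 0.957 (0.720 to 1.27), EPHA7 at 0.919 (0.613 to 1.38) and CDH4 at 1.04 (0.556 to 1.98) were near even there.

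The next counts stand beside 4.25% of all genes past the fold higher below and 6.79% lower. Of 16 calcium and calmodulin genes, PCP4L1 was higher and HPCAL1, NCALD, a calcium sensor, and GAP43, a growth cone protein, were lower, at 0.421 (0.334 to 0.524) for NCALD and 0.621 (0.508 to 0.754) for GAP43. NRGN, the calmodulin-binding neurogranin, went from 61.8 UMIs per 10000 above to 41.9 below, a ratio of 0.678 (0.648 to 0.710) that fell short of the fold but held in all regions, at 0.661, 0.658 and 0.718. NRGN was also lower below in astrocytes, at 0.746 (0.683 to 0.815), and in all cells other than IT_A, at 0.691 (0.671 to 0.711). Of 9 neuropeptide genes, ADCYAP1, the PACAP precursor, was higher at 2.14, 2.13 and 1.87 below against 1.03, 0.975 and 0.816 above, a ratio of 2.14 (1.67 to 2.74), and SCG3, a secretogranin, was higher at 1.65 (1.24 to 2.19), while PENK and CRH were lower. SST, the somatostatin of interneurons, was uneven between regions, with ratios of 3.14, 0.955 and 0.872. Of 9 immediate early genes, FOS was higher, at 1.89 (1.43 to 2.49), and JUN and JUNB were lower, at 0.618 (0.493 to 0.768) and 0.621 (0.460 to 0.825), and EGR1 stood at 0.768 (0.714 to 0.826).

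In the marker lists of other cells, several members were past the fold higher below and none lower, beside 4.25% and 6.79% of all genes. The astrocyte genes past the fold were 4 of 10, among them GFAP at 1.77 (1.14 to 2.72), the water channel AQP4 at 1.61 (1.20 to 2.16) and the glutamate transporter SLC1A2 at 1.53 (1.30 to 1.79). APOE at 0.981 (0.861 to 1.11), SLC1A3 at 0.863 (0.650 to 1.13) and GJA1 at 1.08 (0.854 to 1.36) had no single direction over the regions. Of 4 oligodendrocyte genes, MBP was past the fold. Of 7 GABAergic genes, GAD1 and the vesicular GABA transporter SLC32A1, at 1.85 (1.41 to 2.41), were past it. None of 3 vascular genes was, and no gene of the OPC or microglial lists reached 100 UMIs in IT_A.

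**Figure D5:**
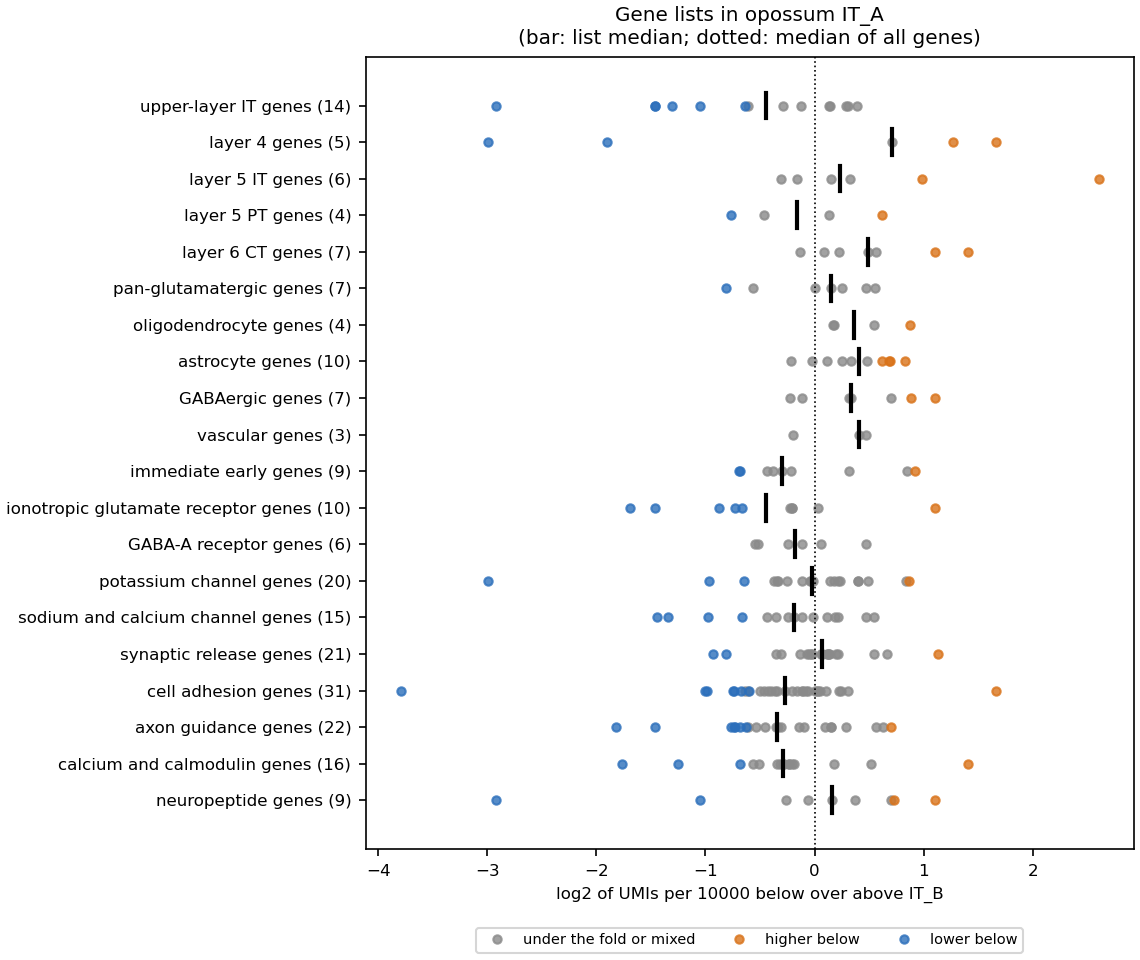
Log2 of the level below over above IT_B (x axis) for the measured members of each gene list with at least 3 of them, with their number in brackets (y axis). Orange points are past the 1.5-fold higher below in all regions, blue points past it lower below, and grey points neither, with a bar at the list median and a dotted line at the median of all genes. Blue points outnumber orange ones in the upper-layer, glutamate receptor, adhesion and guidance lists, and the marker lists of glia and interneurons hold no blue point.

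Cells were also chosen more strictly. Cells of cluster label 6 were left out of the first such choice, although all of them among the IT subclasses are IT_A. In the 1019 cells above and 193 below with cluster label 1 or 3, the log2 ratio was 3.16 for ETV1, 1.15 for CPLX1, 1.63 for CHST2 and -1.92 for GRIA4, against 2.60, 1.13, 1.31 and -1.46 in all IT_A cells. GRM4 was nearer to even there, at 1.02 against 1.78, and the remaining cells of both sides carry other cluster labels or none. Among cells labelled in round 1, of which 41 lay below, CPLX1 was at 1.41, CHST2 at 2.27, CNTN5 at 2.58 and GRIA4 at -0.98. At 30 µm or more from any oligodendrocyte, where 944 cells above and 161 below remained, MBP was still higher below at 0.94, against 0.88 in all cells. CPLX1 was at 1.22, GRM4 at 2.22, GRIA4 at -1.76 and LRRTM4 at -4.26 there. After thinning to 300 UMIs, GRIK4 dropped to -0.42 from -1.69 and GAD1 to 0.41 from 1.11, while CPLX1 stayed at 1.11 and ETV1 at 2.58.

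Mouse L2/3 cells are set beside these values with no test between species. Of 1406 L2/3 cells of glutamatergic class in 4 V1 regions, 1122 lay over and 284 under the median L4 cell, the cut applied there. Of 4204 genes with at least 100 UMIs, 102 (2.43%) were at least 1.5-fold higher below in all 4 regions and 226 (5.38%) lower. These shares are not comparable with those of the opossum, where 3 regions had to agree. The mouse cut also lay at another relative depth, 0.337. ETV1 in the mouse was at 0.704 above and 1.10 below, a ratio of 1.56 (1.06 to 2.26) with all 4 regions over 1. MBP had 1.66 (1.46 to 1.88) and SLC24A3 1.63 (1.15 to 2.29), both also higher in all 4 regions. GRIA4 was at 0.712 (0.521 to 0.958) and ENC1 at 0.628 (0.541 to 0.726), both lower in all 4. CPLX1 was at 1.62 (1.29 to 2.01) and CNTN5 at 2.02 (1.41 to 2.85), each with 1 region under 1. LRRTM4, at 12.8 and 11.0 UMIs per 10000, had a ratio of 0.863 (0.774 to 0.961) and regions on both sides of 1, CHST2 one of 1.20 (0.844 to 1.69) and CACNA1E one of 0.883 (0.700 to 1.10). In the mouse build GRCm39, Etv1 lies on chromosome 12, between bases 38828851 and 38920483. Cplx1 is on chromosome 5, between bases 108666416 and 108697899, and Gria4 is found on chromosome 9, between bases 4417604 and 4796326. For Lrrtm4 it is chromosome 6, between bases 79995860 and 80787124, and Chst2 has chromosome 9, between bases 95281345 and 95289832. All 5 are annotated as protein-coding genes, and counts per gene do not separate exons from introns.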

How the data were processed

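The authors processed the Stereo-seq reads with the SAW workflow, aligning the image to the tissue by hand, against a custom opossum genome with extended 3′ gene ends or against GRCm39, and deposited raw UMI counts per gene and segmented cell without normalization. Their V1 regions, filter and class, subclass, round and cluster labels were used as deposited. The opossum section held 84570416 UMIs, and the IT_A cells 1801841 above the cut and 523699 below. The sections shared 0 cell names. Positions were converted at 2 spatial units to 1 µm, and no caller of doublets was run.

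Levels, ratios, exact intervals, depth and neighbors were computed with Python 3.11.15, numpy 2.4.6, scipy 1.17.1 and pandas 2.3.3, and the ratio was tested on simulated data. Intervals and floors cover counting error only. Genes had to have 100 UMIs over all IT_A cells. The genes named are the 15 in each direction with 1 direction in all regions whose interval bound nearest to 1 was farthest from it, and members of 24 gene lists. Of 412 listed genes, 328 have an opossum feature and 211 were measured. The cells, lists and cut were chosen with earlier results of these data known. Alternatives were other minimums of UMIs, thinning, equal weight of cells or regions, centring, stricter labels or filters, other cuts, distance from oligodendrocytes and each region left out. A restriction to cluster labels 1 and 3 was added after the data had been seen. Values of some listed genes are not reported here. Opossum coordinates and sequences were not used, and 11598 of 30613 features have a symbol.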

Additional observations from a re-analysis of the deposited data

Results flagged for a closer look

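For 3 genes of the lists given here, every opossum region went one way below over above and every mouse region the other. The ratios were 0.621 (95% interval 0.508 to 0.754) in opossum IT_A and 1.48 (1.18 to 1.85) in mouse L2/3 for GAP43, 1.18 (95% interval 0.905 to 1.53) in opossum IT_A and 0.647 (0.492 to 0.840) in mouse L2/3 for CNTN4, and 0.724 (95% interval 0.479 to 1.07) in opossum IT_A and 1.61 (1.15 to 2.23) in mouse L2/3 for CRYM. The difference between the species was not tested, since each is 1 animal. For CNTN4 and CRYM the opossum interval holds 1.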

How the results depend on the processing

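The number of genes past the fold moved by over 1.5 times under the settings given here, except for the genes lower below without region 3. It was 43 higher and 97 lower of 1793 genes with at least 300 UMIs, where 7 listed genes were higher, and 650 higher and 1020 lower of 10234 with at least 20 UMIs. Thinning to 300 UMIs gave 363 and 559, of which 80 and 177 were also past the fold without thinning. Round 1 labels, with 41 cells below, gave 356 and 956, of which 63 and 191 were the same genes, and cells at 30 µm or more from oligodendrocytes gave 538 lower. Where regions 1, 2 or 3 were left out, so that 2 regions had to share a direction, 391, 341 and 338 were higher, and 547, 563 and 465 lower. The share of IT_A cells below was 19.5% for labels of rounds 1 and 2 and 8.33% for round 1. For the 30 genes farthest from even, 425 recomputed log2 ratios lay within the interval of the reported one, 53 lay outside it with the same sign and 1 changed sign, that of ARAP2 with round 1 labels at -0.13. Among listed genes past the fold, it also changed for JUNB at 0.20, NEFH at -0.45 and PCDH7 at 0.15 with round 1 labels, for KCNMB4 at -0.40 after thinning and for EFNB2 at 0.22 away from oligodendrocytes. In 15 cases no UMI was left in the cells below, so no value was given. Leaving out each region gave shares of cells below from 21.9% to 23.3%. The cause was not tested. No paired analysis was possible because each species is 1 sample and no result comes from a test.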

Other observations

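Features with no symbol were among the most uneven. ENSMODG00000000312 had 54 UMIs in IT_A above and 86 below, a ratio of 5.48 (3.85 to 7.85), and was higher below in all 3 regions, at 8.12, 4.15 and 3.75. ENSMODG00000003602 had a ratio of 3.21 (2.28 to 4.51). Lower below were ENSMODG00000037956, at 3.62 UMIs per 10000 above and 0.802 below on 652 and 42 UMIs, a ratio of 0.222 (0.158 to 0.303), and ENSMODG00000005029 at 0.114 (0.0413 to 0.253). What these features encode is not given in the files used here.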
